A study of Mus musculus with 11 samples.

Results

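The transcripts of 8 CC chemokine ligands, *Ccl2* to *Ccl9*, and of the receptors *Ccr1* and *Ccr2* were followed in the skin and the small intestine (SI) of mice with imiquimod (IMQ)-induced psoriatic inflammation. They were taken by gene symbol, and all 10 were found among the 45777 genes of the deposited table. The animals were BALB/c mice aged 8 to 10 weeks. For 5 to 8 days, 62.5 mg of cream was applied daily to the shaved back and the right ear, either Vaseline in the control group or a cream with 5% IMQ, a ligand of Toll-like receptor 7. RNA-seq libraries were available from 3 control and 3 IMQ-treated skin samples (replicates 1 to 3 and 4 to 6) and from 3 control and 2 IMQ-treated SI samples (replicates 7 to 9, 10 and 11). The labels do not state which skin and SI samples came from the same mouse, or whether samples of a group came from separate mice, so the p-values measure the spread between these samples.

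CC chemokines are small secreted proteins that guide leukocytes through G protein-coupled receptors. CCL2, CCL7 and CCL12 act on CCR2 and draw inflammatory monocytes out of the bone marrow and into tissue. CCL3 and CCL5 act on CCR1 among others. CCL6 and CCL9 are rodent chemokines that act on CCR1, a receptor carried by monocytes, macrophages and neutrophils, whereas mouse CCL8 acts mainly on CCR8. In bulk tissue, fewer cells of a type and less RNA per cell cannot be told apart.

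Each library held between 44995414 and 58526384 counts. The tissue labels matched their markers, since the summed FPKM of 8 epidermis markers was at least 5649 in each skin library and at most 1.83 in each SI library, and that of 10 intestinal epithelium markers was at least 6832 in each SI library. Control skin replicate 2 differed from the other skin controls. Its intestinal epithelium markers summed to 154 FPKM, against 9.30 and 14.99 in the other skin controls and 1.47 to 6.14 in IMQ-treated skin. Of the 10 markers, 0 lacked counts in replicate 2, against 7 and 6 in control replicates 1 and 3. One of the 10, *Lgr5*, averaged 2382 normalized counts in control skin and 515 in IMQ-treated skin (n = 3 each). The low sums of the other skin libraries therefore need not reflect intestinal epithelium. The hair follicle markers of control replicate 2, of which 9 were in the table, summed to 13.6 FPKM, against 655 and 1081 in the other controls and 6.96 to 14.8 in IMQ-treated skin. Hair follicle transcripts thus separated 2 of the 3 controls from all treated skin libraries, and their part in the results was not tested. Results in skin are therefore also given without this library where a call depends on it.

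The ligand genes lie on mouse chromosome 11 in the GRCm38 (mm10) build. *Ccl2* (chr11:82035577-82037452), *Ccl7* (chr11:82045712-82047525) and *Ccl8* (chr11:82115185-82116799) lie on the plus strand. Farther along, *Ccl5* (chr11:83525778-83530518), *Ccl9* (chr11:83572917-83578636), *Ccl6* (chr11:83587886-83593087) and *Ccl3* (chr11:83647843-83649378) lie on the minus strand. *Ccl4* (chr11:83648624-83664683) lies on the plus strand and overlaps *Ccl3* by 755 bases. The receptor genes are on chromosome 9, *Ccr1* at chr9:123962126-123968692 on the minus strand and *Ccr2* at chr9:124101918-124109140 on the plus strand. The sources used here do not state how strand was handled in counting, so the shared bases of *Ccl3* and *Ccl4* leave part of their values uncertain. The annotated spans of *Ccl5* and *Ccl6* also lie within those of the noncoding genes *Gm32650* and *E230016K23Rik*. Among CC family transcripts, the longest exact stretch that a ligand shared with another gene was 30 bases, shorter than a 100-base read. For *Ccr1* it was 47 bases. For *Ccr2*, 1.5% of its 100-base windows were shared with another gene of the family.

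In control mice, both tissues expressed these genes in different proportions. Levels are compared here as FPKM, which is scaled by transcript length. *Ccl8* was the most abundant of the 10 transcripts in control skin, at 275 ± 57.6 FPKM (SD, n = 3), followed by *Ccl6* at 30.3 ± 15.5 and *Ccr2* at 15.5 ± 1.59. The libraries of *Ccl8* and *Ccl6* did not overlap in level, and neither did those of *Ccl6* and *Ccr2*. *Ccl9* (10.4 ± 3.12 FPKM), *Ccl2* (7.48 ± 1.07) and *Ccl7* (6.22 ± 0.687) came next, each overlapping with its neighbor. *Ccl5* (2.60 ± 0.709), *Ccr1* (1.53 ± 0.721), *Ccl3* (0.563 ± 0.271) and *Ccl4* (0.281 ± 0.107) were lowest. In control SI, *Ccl6* led at 115 ± 21.7 FPKM (n = 3), followed by *Ccl5* at 42.0 ± 6.07 and *Ccl9* at 7.60 ± 1.41, none of which overlapped with the next. *Ccr1* (2.80 ± 0.377), *Ccl8* (2.66 ± 2.47) and *Ccr2* (1.83 ± 0.533) overlapped in sequence, and *Ccl4* (1.04 ± 0.265), *Ccl3* (0.513 ± 0.118), *Ccl2* (0.411 ± 0.218) and *Ccl7* (0.210 ± 0.0770) were lower.

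**Figure D1:**
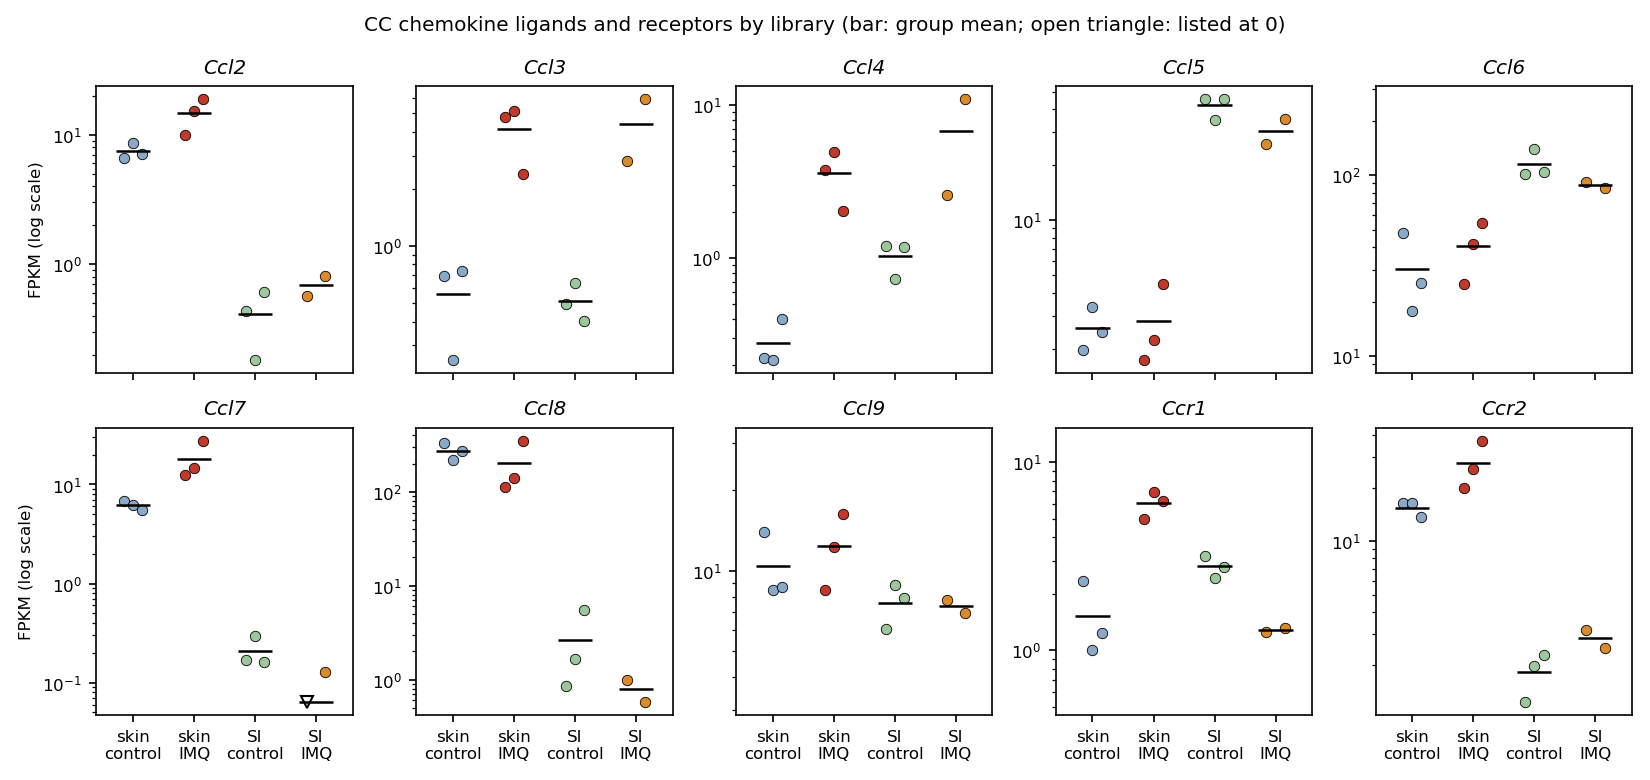
FPKM of each of the 10 genes (vertical axis, log scale, separate for each panel) in the 11 libraries, grouped as control and IMQ-treated skin and SI, with a bar at the group mean and an open triangle for a library listed at 0. Ccl8 lay between 114 and 351 FPKM in skin and between 0.576 and 5.47 in SI, and the treated libraries of Ccr1 lay above the controls in skin and below them in SI.

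Of the summed FPKM of the 8 ligands, *Ccl8* made up 82.8% on average in control skin (81.0% to 84.4% in single libraries) and 1.58% in control SI (0.545% to 3.30%). *Ccl6* made up 67.5% (63.0% to 74.8%) in control SI and 8.75% (6.76% to 11.6%) in control skin, and *Ccl5* made up 25.1% in control SI and 0.839% in control skin. Among these 8 ligands, one known mainly for CCR8 thus took most of the summed FPKM in skin, and ligands of CCR1 most of it in SI. *Ccl25*, a CC ligand outside the 8, was at 391 ± 26.5 FPKM in control SI (n = 3). Between control SI and control skin, the quasi-likelihood test of edgeR (Benjamini-Hochberg adjusted p under 0.05) called 7 of the 9 genes tested, in a comparison in which 57.0% of all genes tested were called (28.2% higher and 28.8% lower in SI). In SI, *Ccl5* was 21.9-fold higher (log2 fold change 4.45, SE 0.38, adjusted p = 2.39e-06), *Ccl6* was 5.22-fold higher (adjusted p = 9.28e-05), *Ccl4* was 4.58-fold higher (adjusted p = 0.0111) and *Ccr1* was 2.53-fold higher (adjusted p = 0.00168). *Ccl8* was 72.3-fold lower in SI than in skin (log2 fold change -6.18, SE 0.67, adjusted p = 1.54e-05), *Ccl2* was 12.6-fold lower (adjusted p = 2.09e-05) and *Ccr2* was 6.16-fold lower (adjusted p = 6.12e-06). *Ccl3* (log2 fold change 0.32, SE 0.48, adjusted p = 0.6) and *Ccl9* (0.00, SE 0.24, adjusted p = 0.998) did not pass the test. *Ccl7* had no count in one IMQ-treated SI library and was not tested in this comparison. The call of *Ccl4* was lost on the log2(FPKM + 1) scale (adjusted p = 0.158).

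**Figure D2:**
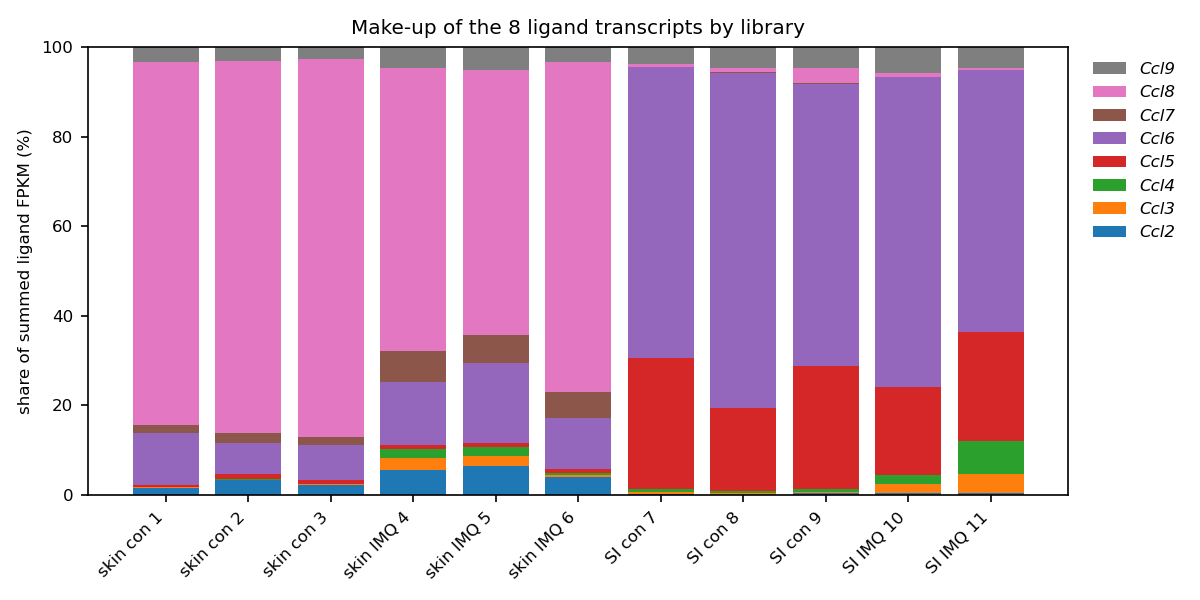
Share of the summed FPKM of the 8 ligands (vertical axis, percent) that each ligand took in the 11 libraries (horizontal axis; con, control). Ccl8 filled 81.0% to 84.4% in control skin and 59.2% to 73.6% in IMQ-treated skin, and Ccl6 filled 58.4% to 74.8% in SI.

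The upstream sequences below show the 250 bases before the annotated start of *Ccr1*, whose response differed between the tissues, of *Ccl3*, which was called in both tissues, and of *Ccl8*, the dominant ligand of skin. They are from RefSeq (GRCm38.p6), whose promoter table held 6 of the 10 genes, and read 5′ to 3′ on the strand of the gene. Capitals mark matches on either strand to the kappaB motif or to the interferon regulatory factor (IRF) core AANNGAAA. The AP-1 motif TGANTCA and the C/EBP motif TTGCNNAA were searched too and were found in none of the 3 windows.
Ccr1, chr9:123968693-123968942, minus strand: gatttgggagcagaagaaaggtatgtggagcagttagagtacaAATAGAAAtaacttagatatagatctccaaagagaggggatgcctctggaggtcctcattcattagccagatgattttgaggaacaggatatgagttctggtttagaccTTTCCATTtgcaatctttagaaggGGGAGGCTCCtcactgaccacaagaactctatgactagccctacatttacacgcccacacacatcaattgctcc
Ccl3, chr11:83649379-83649628, minus strand: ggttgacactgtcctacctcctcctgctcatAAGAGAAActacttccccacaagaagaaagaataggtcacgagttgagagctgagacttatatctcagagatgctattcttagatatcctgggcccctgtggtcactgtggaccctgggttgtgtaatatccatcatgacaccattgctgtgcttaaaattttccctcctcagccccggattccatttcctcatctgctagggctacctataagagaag
Ccl8, chr11:82114935-82115184, plus strand: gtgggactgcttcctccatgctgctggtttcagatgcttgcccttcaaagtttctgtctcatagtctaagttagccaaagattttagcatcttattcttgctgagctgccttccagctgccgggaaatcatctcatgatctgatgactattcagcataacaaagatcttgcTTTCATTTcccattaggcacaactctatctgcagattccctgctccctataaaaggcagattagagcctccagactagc
The *Ccr1* window held a kappaB match from -74 to -65 relative to the start site and IRF core matches from -207 to -200 and from -98 to -91. The *Ccl3* window held an IRF core match from -219 to -212 and the *Ccl8* window one from -79 to -72. These matches are descriptions of letters, not of bound sites. Of 32851 windows of the same length, 7.25% held the kappaB motif, 21.3% the IRF core, 6.75% the AP-1 motif and 9.56% the C/EBP motif.

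In the skin, IMQ raised *Ccl3*, *Ccl4*, *Ccl7* and *Ccr1*, which were the 4 of the 10 genes that passed the quasi-likelihood test of edgeR after Benjamini-Hochberg adjustment. Of all 20512 genes tested in skin, 6.74% were called and 4.05% were called higher. The 3 IMQ-treated libraries lay above the 3 controls for 6 of the 10 genes, against 15.1% of all genes, whereas 13.3% of all genes had groups that were separate in the other direction. The median log2 fold change of the 10 genes was 0.94, against -0.01 over all genes tested.

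*Ccl3* and *Ccl4* encode macrophage inflammatory proteins and changed most. *Ccl3* had 29.0, 12.0 and 30.5 normalized counts in control skin and 217, 225 and 102 in IMQ-treated skin, a 7.51-fold rise (log2 fold change 2.91, SE 0.47, adjusted p = 0.0189). *Ccl4* had 8.14, 8.72 and 19.2 normalized counts in the controls and 146, 188 and 77.4 with IMQ, an 11.2-fold rise (log2 fold change 3.49, SE 0.49, adjusted p = 0.0122). For both genes every treated library lay above every control, and IMQ replicate 6 was the lowest of the treated libraries. Both remained scarce in inflamed skin, at 4.12 ± 1.52 FPKM for *Ccl3* and 3.58 ± 1.45 FPKM for *Ccl4* (n = 3).

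Of the genes of the monocyte axis, *Ccl2*, *Ccl7* and *Ccr2* were higher in each treated skin library than in every control, and *Ccl7* was called. *Ccl7* had 289, 282 and 228 normalized counts in control skin and 566, 643 and 1187 in IMQ-treated skin, a 2.996-fold rise (log2 fold change 1.58, SE 0.31, adjusted p = 0.0315). *Ccl2*, the best known monocyte attractant, had 280, 394 and 297 normalized counts in the controls and 457, 675 and 813 with IMQ (log2 fold change 1.004, SE 0.26, adjusted p = 0.067). Their receptor gene *Ccr2* had 3131, 3335 and 2574 normalized counts in the controls and 4199, 5104 and 7194 with IMQ (log2 fold change 0.87, SE 0.21, adjusted p = 0.0614). *Ccl12*, a further CCR2 ligand outside the 10 genes, overlapped between the groups, with 137, 142 and 113 normalized counts in the controls and 127, 156 and 193 with IMQ (log2 fold change 0.28, SE 0.24, adjusted p = 0.539). IMQ replicate 6 was the highest library for *Ccl2*, *Ccl7* and *Ccr2*, the opposite of its place for *Ccl3* and *Ccl4*. The Wald test of DESeq2 called *Ccl2* (adjusted p = 0.00378) and *Ccr2* (adjusted p = 0.00577), and edgeR without control replicate 2 called *Ccl2* (adjusted p = 0.044). Under the other settings that kept all skin libraries, DESeq2 included, *Ccl2* was called in 1 of 8 and *Ccr2* in 2 of 8. *Ccl7* kept its call in 6 of 7.

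*Ccr1* had 348, 159 and 182 normalized counts in control skin and 806, 1082 and 949 in IMQ-treated skin, a 4.11-fold rise (log2 fold change 2.04, SE 0.32, adjusted p = 0.0174). The lowest treated library exceeded the highest control more than the controls differed among themselves. The rodent CCR1 ligands *Ccl6* and *Ccl9* did not pass the test. *Ccl6* had 3578, 1437 and 1893 normalized counts in control skin and 2062, 3300 and 4176 with IMQ (log2 fold change 0.46, SE 0.39, adjusted p = 0.524). *Ccl9* had 2202, 1435 and 1352 in the controls and 1457, 2024 and 2628 with IMQ (log2 fold change 0.29, SE 0.27, adjusted p = 0.571). In both genes the groups overlapped, because control replicate 1 was high.

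*Ccl8* and *Ccl5* also overlapped between the groups. *Ccl8* had 8912, 6268 and 7202 normalized counts in control skin and 3319, 3911 and 9598 with IMQ (log2 fold change -0.41, SE 0.40, adjusted p = 0.594). In IMQ replicates 4 and 5 it lay below every control, and in IMQ replicate 6 above every control. *Ccl5*, which is made by T and NK cells among others, had 55.2, 101 and 67.99 normalized counts in the controls and 53.5, 64.8 and 129 with IMQ (log2 fold change 0.14, SE 0.41, adjusted p = 0.875). The share of *Ccl8* in the summed ligand FPKM was 63.2% and 59.2% in IMQ replicates 4 and 5 and 73.6% in replicate 6, each below the lowest control share of 81.0%.

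With all skin libraries kept, *Ccl3*, *Ccl4* and *Ccr1* were called under each of the 8 other settings. The calls in skin were sensitive to leaving out single libraries. Without IMQ replicate 5 none of the 10 genes was called by edgeR, with adjusted p-values of 0.0792 for *Ccl3*, 0.0537 for *Ccl4*, 0.0859 for *Ccl7* and 0.0794 for *Ccr1*. In that fit the calls over all genes also fell, from 1382 to 258. Without control replicate 1 only *Ccr1* was called, without control replicate 2 there were 5 calls, *Ccl2* being added, and without control replicate 3, IMQ replicate 4 or IMQ replicate 6 there were 3. The fold changes of the 4 called genes remained positive in each of these fits.

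In the SI, *Ccl3* was the gene called among the 9 tested. Of all 19965 genes tested in SI, 2.95% were called and 2.77% were called higher. *Ccl3* had 23.9, 28.2 and 19.4 normalized counts in control SI and 128 and 292 in IMQ-treated SI, an 8.76-fold rise (log2 fold change 3.13, SE 0.42, adjusted p = 0.00815). Without control replicate 9 its adjusted p was 0.0534. *Ccl4* had 53.2, 29.2 and 50.8 normalized counts in the controls and 109 and 457 with IMQ (log2 fold change 2.66, SE 0.59, adjusted p = 0.0708). Both treated libraries lay above the controls, with replicate 11 higher for both genes. *Ccl4* was called by DESeq2 (adjusted p = 0.000143), in one fit of all 11 libraries (adjusted p = 0.0297) and without IMQ replicate 10 (log2 fold change 3.37, adjusted p = 0.0127), whereas without IMQ replicate 11 its log2 fold change was 1.29.

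The other ligands of SI did not pass the test. *Ccl6*, the most abundant of them, had 8504, 10961 and 9041 normalized counts in control SI and 7542 and 7586 with IMQ, lower in both treated libraries (log2 fold change -0.33, SE 0.15, adjusted p = 0.468). *Ccl5* had 1422, 1015 and 1461 normalized counts in the controls and 786 and 1165 with IMQ (log2 fold change -0.41, SE 0.23, adjusted p = 0.569). *Ccl9* had 1071, 1446 and 1436 in the controls and 1341 and 1292 with IMQ (log2 fold change 0.00, SE 0.17, adjusted p = 0.999). The treated libraries of *Ccl5* and *Ccl9* lay within or across the range of the controls. *Ccl8* had 26.0, 46.4 and 169 normalized counts in the controls and 30.0 and 18.9 with IMQ (log2 fold change -1.71, SE 0.81, adjusted p = 0.468), and control replicate 9 alone carried the high value. *Ccl2* had 21.7, 8.07 and 30.5 in the controls and 26.3 and 41.0 with IMQ (log2 fold change 0.73, SE 0.53, adjusted p = 0.688). *Ccl7* was scarce, with 8, 13 and 9 counts in the controls and 0 and 6 with IMQ, and could not be tested after genes with a 0 were removed. Counts this low limit what could be detected for *Ccl2*, *Ccl7* and *Ccl8* in SI.

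Neither receptor gene passed the test in SI. *Ccr1* had 530, 376 and 475 normalized counts in control SI and 204 and 233 in IMQ-treated SI, so both treated libraries lay below every control. It was 2.11-fold lower (log2 fold change -1.08, SE 0.23) with an adjusted p of 0.0601 in edgeR's quasi-likelihood test, and was called by DESeq2 (adjusted p = 0.000221) and with the filterByExpr filter (adjusted p = 0.0461). *Ccr2* had 273, 389 and 501 normalized counts in the controls and 665 and 560 with IMQ, above every control (log2 fold change 0.66, SE 0.27, adjusted p = 0.371). In total, treated libraries lay above all controls for 3 of the 9 genes tested, *Ccl3*, *Ccl4* and *Ccr2*, against 15.1% of all genes, and below them for 2, *Ccl6* and *Ccr1*, against 13.9%. The median log2 fold change of the 9 genes was 0.00, against -0.02 over all genes tested.

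**Figure D3:**
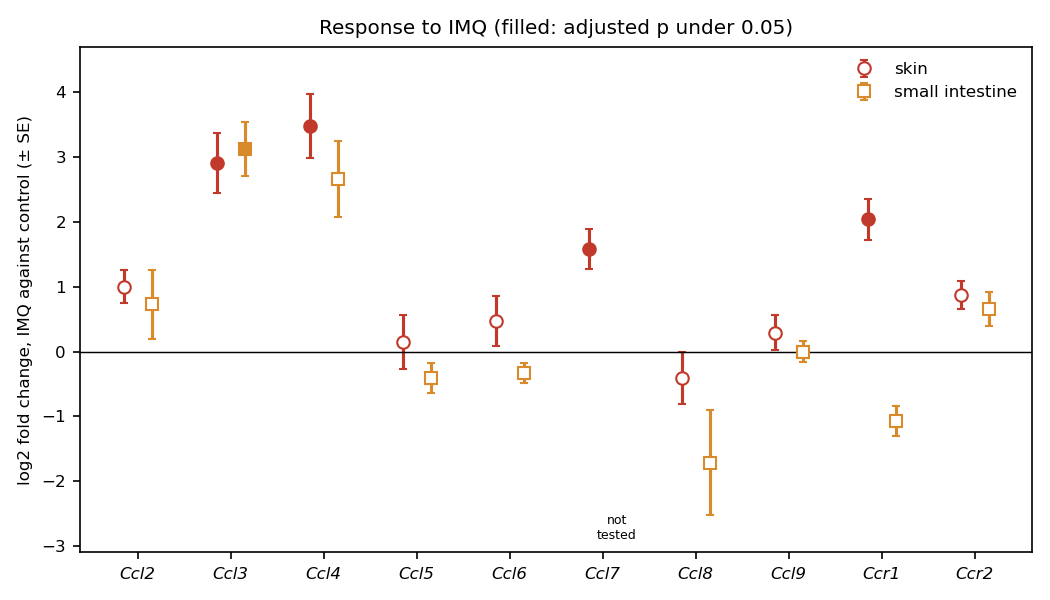
Log2 fold change of IMQ-treated against control samples with its SE (vertical axis) for each gene in skin (circles) and SI (squares), filled where edgeR's adjusted p was under 0.05. Ccl3 and Ccl4 were at 2.66 or more in both tissues, and Ccr1 was at 2.04 in skin and -1.08 in SI.

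The difference between the responses of skin and SI was tested by an interaction term over the 11 libraries, in which 2.55% of 18108 genes were called and 0.856% were called lower in SI. *Ccr1* was the gene called among the 9 tested. Its response in SI was lower than in skin by a log2 difference of -3.11 (SE 0.43, adjusted p = 0.00523), or 8.65-fold. It was called in each of the 11 fits that left out one library, with values from -3.52 to -2.92 and a highest adjusted p of 0.0438, and under each of the 7 other settings, with values from -3.17 to -2.23. For the other 8 genes the difference was not called. It was 0.23 (SE 0.66, adjusted p = 0.915) for *Ccl3*, -0.81 (SE 0.84, adjusted p = 0.697) for *Ccl4* and -0.20 (SE 0.36, adjusted p = 0.846) for *Ccr2*. As a description chosen after the values were seen, the ratio of *Ccr2* to *Ccr1* FPKM within a library was 6.998 to 16.4 in control skin and 3.68 to 5.91 in IMQ-treated skin. In SI it was 0.389 to 0.820 in the controls and 1.89 to 2.52 with IMQ, so that *Ccr1* exceeded *Ccr2* in each control SI library and *Ccr2* exceeded *Ccr1* in both treated ones.

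**Figure D4:**
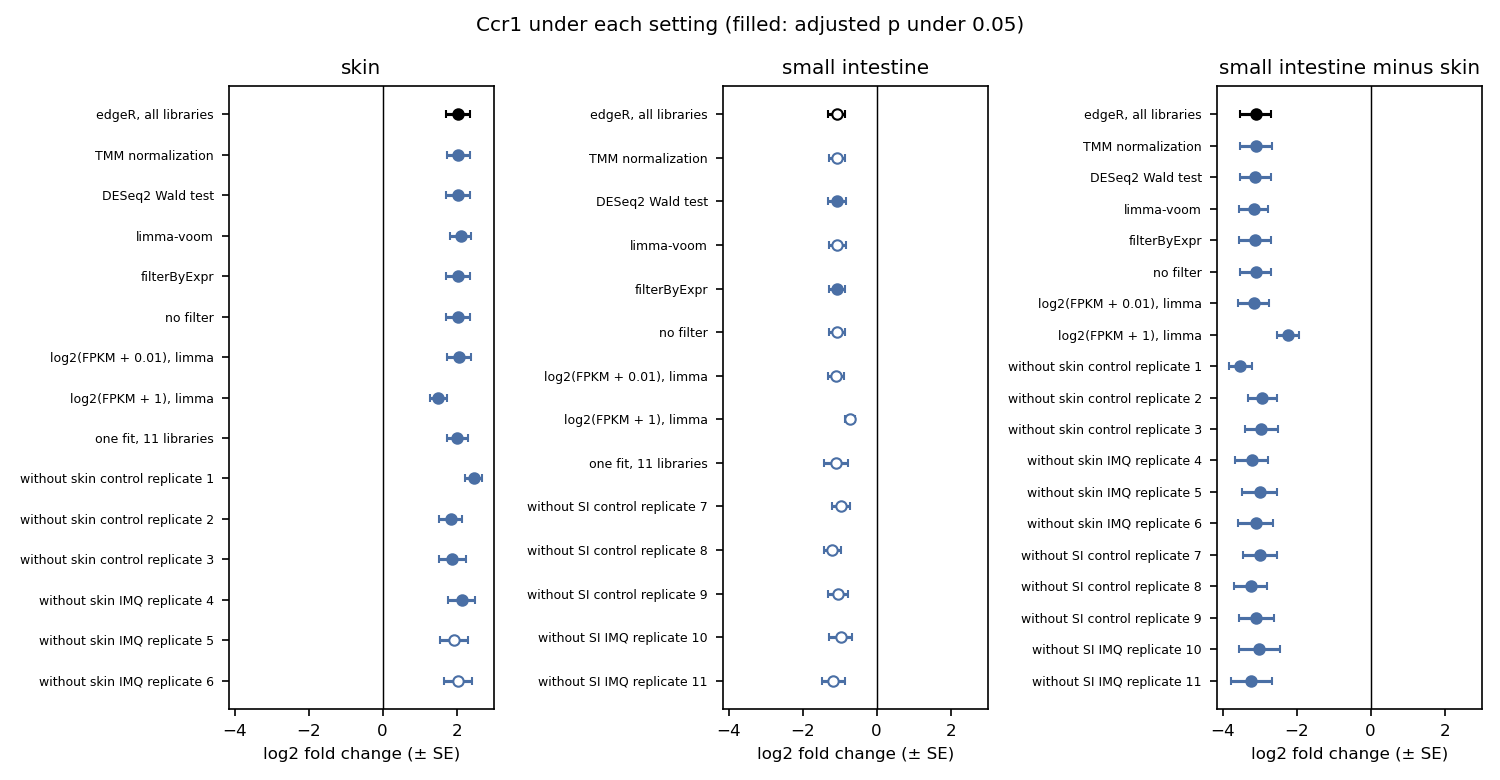
Log2 fold change of Ccr1 with its SE (horizontal axis) under each setting and with each library left out (vertical axis), in skin, in SI and as the difference between SI and skin, filled where the adjusted p was under 0.05. The difference stayed between -3.52 and -2.23 and was called in every row, whereas the value for SI alone, near -1.08, was called in 2.

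Several marker genes of leukocytes also passed the test, in which 4.05% of all genes in skin and 2.77% in SI were called higher. In skin, 6 of 12 monocyte and macrophage markers were called higher, including *Itgam* (7.68-fold) and *Adgre1* (7.34-fold), and their summed normalized counts were 37197 to 54447 in the controls and 88568 to 102049 with IMQ. The 6 neutrophil markers tested of 9 were all called higher, with sums of 824 to 1161 and 179626 to 225967, most of which came from *S100a8* and *S100a9*, genes that inflamed keratinocytes also express. *Csf3r*, a receptor gene of neutrophils, rose 8.20-fold. Of 6 mast cell markers in skin, 4 were called higher, *Hdc* (6.08-fold), *Tpsb2* (2.08-fold), *Cma1* (2.01-fold) and *Mcpt4* (1.54-fold). The sums of the 6 were 6640 to 9235 in the controls and 12926 to 16518 with IMQ. Of 3 B cell markers tested, 2 were called higher, *Blk* (34.3-fold) and *Cd79b* (10.7-fold). Among 10 T and NK cell, 6 dendritic cell and 2 tested eosinophil markers, 0 were called in skin. Their log2 fold changes were positive for 9, 3 and 0 genes and negative for 1, 3 and 2. In SI, 5 of 12 monocyte and macrophage markers were called higher, including *Cd68* (5.82-fold) and *Adgre1* (4.47-fold), with sums of 19100 to 26434 in the controls and 36264 to 39101 with IMQ. Of the 12, 10 had positive log2 fold changes and 2 negative ones, *Ly6c2* (-0.52) and *Cx3cr1* (-0.14). *Lyz2* and *Mrc1* were both at 0.05. Of 5 neutrophil markers tested in SI, 2 were called higher, including *Csf3r* (9.23-fold), with sums of 381 to 484 and 1903 to 1926. *Csf3r* alone made up 1644 and 1596 of the sums with IMQ, *Retnlg* had a log2 fold change of -0.07 and *Cxcr2* of -0.25, and the neutrophil markers *Ly6g* and *Ngp* had 0 counts in both treated libraries. Of 6 dendritic cell markers in SI, 2 were called higher, *Itgax* (7.05-fold) and *Xcr1* (2.22-fold), with sums of 2498 to 2892 in the controls and 11989 to 14960 with IMQ. Most of the sum with IMQ came from *Itgax*, at a mean of 12220 normalized counts. The other 4 were not called, and *Cd209a* had the 1 negative log2 fold change (-0.94). The sum of 10 T and NK cell markers in SI was 6207 to 13314 in the controls and 7492 to 8958 with IMQ. The part of cell numbers in the changes of the chemokines was not tested.

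Within the rest of the CC family, 2 of 12 other ligands tested were called in skin and both fell. Of all 20512 genes tested in skin, 552 were called lower. *Ccl27a*, a keratinocyte chemokine that acts on CCR10, had 985, 1337 and 848 normalized counts in the controls and 252, 335 and 376 with IMQ (log2 fold change -1.72, SE 0.23, adjusted p = 0.011). *Ccl24*, an eosinophil attractant that acts on CCR3, had 381, 393 and 278 in the controls and 163, 131 and 147 with IMQ (log2 fold change -1.25, SE 0.22, adjusted p = 0.0233). Among the receptors, the scavenging receptor gene *Ackr4* had 1050, 1666 and 751 normalized counts in the controls and 294, 332 and 239 with IMQ, a fall in each treated library (log2 fold change -2.00, SE 0.31, adjusted p = 0.0164). The groups did not overlap for these genes, but without IMQ replicate 5 the adjusted p was 0.0607 for *Ccl27a*, 0.115 for *Ccl24* and 0.0682 for *Ackr4*. Over the 6 fits with a library left out, *Ccl27a* stayed called in 5, and *Ccl24* and *Ackr4* in 2 each. Counts of *Ccl27a* are uncertain because near-identical copies of it exist.

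In SI, 1 of 9 other ligands tested was called, and it fell, where 34 of all 19965 genes tested were called lower. *Ccl28*, an epithelial chemokine that acts on CCR10 and CCR3, had 3417, 4046 and 3345 normalized counts in the controls and 2053 and 2140 with IMQ (log2 fold change -0.78, SE 0.14, adjusted p = 0.0269). With all SI libraries kept, it was called under 5 of 8 other settings. Leaving out single libraries lost the call in 4 of 5 fits, with adjusted p-values up to 0.224 without IMQ replicate 10. *Ccl12*, a ligand of CCR2, had 13, 19 and 27 counts in control SI and 0 in both treated libraries, at least 6.13-fold lower when 3 counts are taken as the floor of each library. It was not tested.

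**Figure D5:**
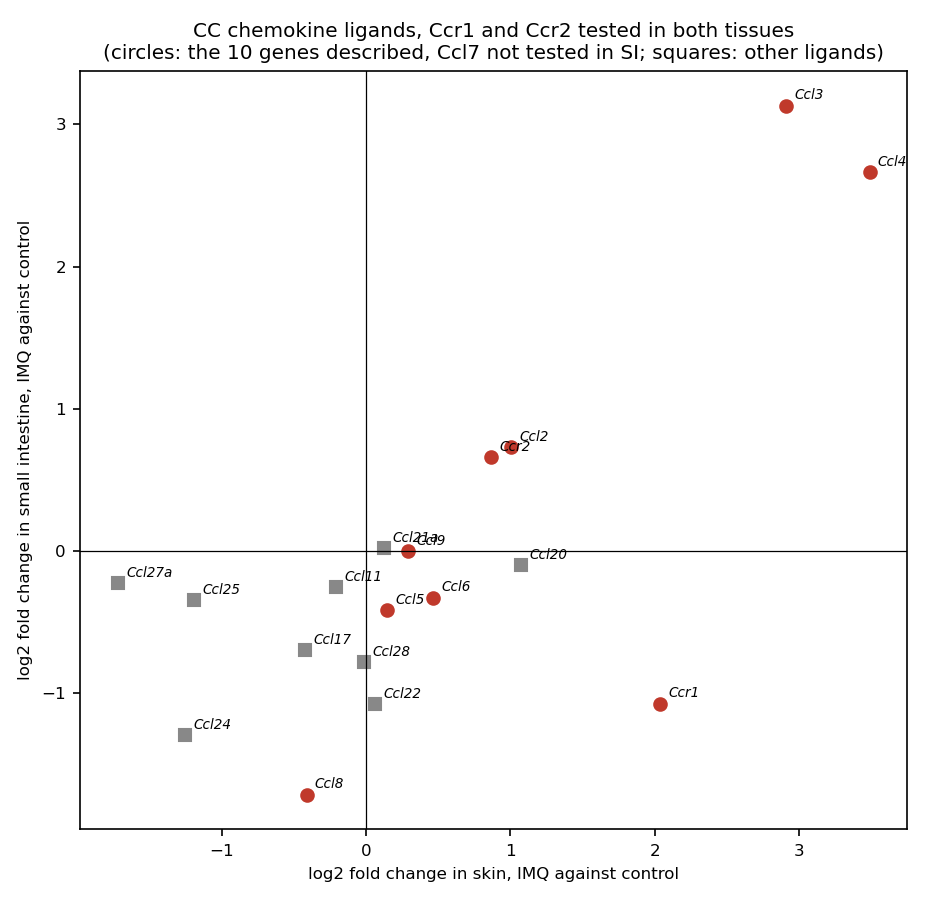
Log2 fold change with IMQ in skin (horizontal axis) and in SI (vertical axis) for the 9 genes described that were tested in both tissues (circles) and 9 other CC ligands (squares). Ccl3 and Ccl4 lie at the upper right, and Ccr1 lies at the lower right, positive in skin at 2.04 and negative in SI at -1.08.

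Some genes that carry the signal of chemokine receptors into the cell rose. Of 22 such genes (G protein subunits, phosphoinositide 3-kinase, Rac, Src family kinases, arrestins and others), 11 were called in skin and 12 in SI, all higher, against 4.05% and 2.77% of all genes called higher in these tissues. The other 11 in skin and 10 in SI were not called, and in SI 4 of those, *Gnai3*, *Gnb1*, *Grk6* and *Arrb1*, had negative fold changes. The largest rises in skin were *Rac2* (5.16-fold), a Rac GTPase of leukocytes, *Fgr* (3.73-fold), *Pik3r5* (3.55-fold) and *Lyn* (3.48-fold). In SI, rises included *Fgr* (11.1-fold), *Pik3r5* (5.02-fold) and *Rac2* (4.65-fold). The Src family kinase gene *Fgr* rose more in SI than in skin (interaction 1.58, SE 0.31, adjusted p = 0.0239). The median log2 fold change of the list was 0.83 in skin and 1.24 in SI. The number called in skin was 5 without control replicate 1.

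The genes most like each of the 10 were sought among 15465 others by the correlation of log2 depth-scaled counts over the 11 libraries, after the mean of each tissue was removed. The libraries share treatment, so such likeness describes both treatment and the spread within groups. Each r below is among the highest of 15465, and whether it exceeds what such a search gives by chance was not tested. *Ccl3* was closest to *Tagap* (r = 0.960) and *Il1b* (r = 0.954), and *Ccl4* to *Il1b* (r = 0.948) and *Cdc42se1* (r = 0.938). *Il1b* encodes the cytokine interleukin-1 beta and stood beside both of these chemokines. *Ccr1* was closest to *Cyp4f18* (r = 0.969), a leukotriene-metabolizing enzyme of neutrophils, and *Gm15483* (r = 0.946), and *Ccl7* to *Vnn3* (r = 0.979) and *Gm30054* (r = 0.964). *Ccl2* was closest to the complement gene *C1s2* (r = 0.966) and the pore-forming protein gene *Gsdmd* (r = 0.954), and *Ccr2* to *AI662270* (r = 0.947). *Ccl5* was closest to *Uqcrb* (r = 0.956) and to *Cd7* (r = 0.954), which is carried by T and NK cells. *Ccl6* (r = 0.881) and *Ccl9* (r = 0.883) had the same nearest gene, *Phtf1os*, and *Ccl8* was closest to *LOC102640673* (r = 0.956).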

How the data were processed

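RNA of mouse skin and SI was sequenced as 100-base paired reads from a stranded mRNA library kit. The authors trimmed the reads, aligned them to mm10 with HISAT2 2.1.0, quantified genes with StringTie 2.1.3b and deposited unnormalized whole-number read counts per gene. FPKM values computed by the authors were deposited alongside, as was TPM, which was not used. Sources used here do not state how strand or multiply mapped reads were counted.

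With R 4.3.3 and edgeR 4.0.16, genes that had 1 count or more in each library of a fit were kept, normalized by relative log expression and compared with the quasi-likelihood test. A Benjamini-Hochberg adjusted p under 0.05 over all genes tested was a call. Skin and SI were fitted separately, and the interaction and the comparison of control tissues in one fit of 11 libraries. Normalized counts are scaled to the mean effective library size of a tissue. The test was checked on counts simulated with the spread that edgeR itself estimated, with changes placed only in the more abundant genes. That check cannot vouch for the test on scarce genes or under another kind of spread. Alternatives were TMM normalization, the Wald test of DESeq2 1.42.0, limma 3.58.1 (voom, and log2(FPKM + 0.01) or log2(FPKM + 1)), other filters, other sets of samples and each library left out; those for other CC family genes and gene lists were added after the data were seen. The genes described and the gene lists were chosen with earlier results of these data known. Named genes were the 10 genes, the called CC family genes, *Ccl12* and *Ccl25*. From a list came up to 4 called genes with the largest changes and a mean of 50 normalized counts or more, and some uncalled genes. Up to 2 most correlated genes of each of the 10 were also named. Floors cover counting error only. Some genes of the family and lists are not reported here.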

Additional observations from a re-analysis of the deposited data

Results flagged for a closer look

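The response of *Ccr1* to IMQ differed between the tissues in a test of the difference itself. The log2 fold change in SI minus that in skin was -3.11 (SE 0.43, adjusted p = 0.00523, quasi-likelihood test of edgeR, Benjamini-Hochberg adjustment). All 3 treated skin libraries lay above the 3 skin controls, and both treated SI libraries lay below the 3 SI controls. The test of SI alone gave an adjusted p of 0.0601.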

How the results depend on the processing

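The number of genes called in skin was 3030 with DESeq2 (1514 higher and 1516 lower, against 830 and 552), 894 on log2(FPKM + 1) and 1846 in one fit of all libraries (902 higher and 944 lower), and 258 (without IMQ replicate 5) to 2521 (without control replicate 2) with a library left out. In SI it was 1206 with DESeq2 and 294 to 801 with a library left out. The interaction gave 1281 genes with DESeq2, 301 without a filter and 144 (without SI IMQ replicate 10) to 1072 (without control skin replicate 2). Between control tissues, log2(FPKM + 0.01) gave 3196 higher and 8330 lower in SI and log2(FPKM + 1) gave 3167 and 8278, against 5111 and 5210. The FPKM scales moved the median log2 difference of all genes between control tissues from -0.01 to -0.45 and -0.25. The number of the 10 genes called in skin was 0 to 5 with a library left out. In SI it was 3 with DESeq2 (*Ccl3*, *Ccl4* and *Ccr1*), 2 with filterByExpr, 2 in one fit of all libraries, and 0 to 2 with a library left out. The cause of these shifts was not tested.

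The sign changed in 25 of 671 alternative values of single genes, none of them called. With a library left out, the log2 fold change was -0.33 to 0.42 for *Ccl5* in skin, -0.13 to 0.071 for *Ccl9* in SI, and -0.15 to 0.24 for *Ccl9* between control tissues. The interaction was -0.65 to 0.18 for *Ccl2*, -0.50 to 0.72 for *Ccl3* and -0.39 to 0.039 for *Ccr2*. *Ccl9* in SI was 0.003 with TMM and 0.0099 with limma-voom. Between control tissues, *Ccl9* was -0.078 with TMM, -0.43 on log2(FPKM + 0.01) and -0.39 on log2(FPKM + 1), and *Ccl3* was -0.0084 and -0.034 on these scales. Sign and side of the threshold were kept in 606 of the values, a call was lost in 31 and one was gained in 9. The *Ccl7* values of SI could be fitted without a filter, at -1.62 (SE 1.14, adjusted p = 0.747, edgeR), and its difference between control tissues was then -4.38 (SE 0.51, adjusted p = 3.29e-05). No paired analysis was possible because the groups share no replicate numbers. Low counts limit what could be seen of *Ccl2*, *Ccl7* and *Ccl8* in SI, and 2 treated SI libraries limit all comparisons there.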
